A study of Mus musculus with 24 samples.

Results

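The nuclear genes of the mitochondrial respiratory chain were followed in HOXA9-immortalized mouse bone marrow cells with a vector coding for IDH1 R132H, either left untreated or exposed to vitamin C. Members were taken by symbol: all genes beginning with Ndufa, Ndufb, Ndufc, Ndufs, Ndufv, Sdha, Sdhb, Sdhc, Sdhd, Uqcr, Cox4, Cox5, Cox6, Cox7, Cox8 or Atp5 that reached 1 RPKM in 1 or both RNA-seq libraries. RPKM is the number of reads scaled by the length of the gene and by the depth of the library. Of 98 symbols of that form, 92 passed, out of 10436 genes at or above 1 RPKM and 22371 genes in the table. They comprised 44 genes of complex I, 8 of complex II, 8 of complex III, 14 of complex IV and 18 of complex V. Of these, 77 encode structural subunits. The other 15 carry the same prefixes but encode assembly factors (Ndufaf1 to Ndufaf8 and Sdhaf1 to Sdhaf4), the supercomplex factor Cox7a2l, the coupling factor Atp5s, or are annotated as a pseudogene (Atp5l-ps1).

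The series paired polyA RNA-seq with ChIP-seq, MeDIP-seq, hMeDIP-seq and bisulfite sequencing, with 1 library per group, so no test between conditions was possible for any gene below. Every RNA-seq and ChIP-seq group reported here carried the mutant IDH1 vector, and all cells were grown with IL-3, IL-6 and SCF. A MeDIP list is attached to the untreated cells with wild-type IDH1. Treated cells received 0.345 mM vitamin C at 0, 24 and 48 h before harvest at 72 h. When the untreated cells were harvested, the number of clones, the promoter of the vector and the level of the mutant protein are not stated in the labels. IDH1 R132H is a mutant isocitrate dehydrogenase that makes 2-hydroxyglutarate from 2-oxoglutarate. HOXA9 is a homeobox transcription factor whose overexpression keeps myeloid progenitors dividing.

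The respiratory chain sits in the inner mitochondrial membrane. Complex I (NADH dehydrogenase) and complex II (succinate dehydrogenase, also an enzyme of the tricarboxylic acid cycle) pass electrons to ubiquinone, complex III hands them on to cytochrome c, and complex IV (cytochrome c oxidase) gives them to oxygen. Complexes I, III and IV pump protons, and complex V, the ATP synthase, uses the resulting gradient to make ATP. Complex II is the only one of the 5 with no subunit encoded in mitochondrial DNA. None of the 13 protein genes of mitochondrial DNA was in the table, so the values below concern nuclear genes only.

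Promoters of nuclear respiratory genes are known for binding sites of NRF1 (nuclear respiratory factor 1), of YY1 and of the ETS factor GABP. Windows from 250 bases before to 50 bases after the annotated start were taken from RefSeq on GRCm38.p6, the assembly also called mm10. They were available for the 75 of 92 members that matched by Ensembl identifier or, failing that, by symbol. The letters searched on both strands were GCGCATGCG for NRF1, AAGATGGC for YY1, CCGGAAG for ETS factors, GAGGAAGT for PU.1, CCAAT and TATAAA. The ETS and PU.1 letters share the bases GGAAG but cannot match at the same position. 6 windows are shown for the members on which the results turn: Cox7a2l, Ndufb7 and Ndufs7 stood lowest with vitamin C among members with a window, Ndufaf7 stood highest, and Uqcr11 and Cox6a1 illustrate the NRF1 letters. Each is printed 5′ to 3′ on the strand of its gene, and capitals mark the NRF1, YY1 or ETS letters.

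The Cox7a2l window lies at chr17:83514284-83514583 on the minus strand, that of Ndufb7 at chr8:83566508-83566807 on the plus strand, and that of Ndufs7 at chr10:80249199-80249498 on the plus strand. The Uqcr11 window lies at chr10:80406772-80407071 and that of Cox6a1 at chr5:115348909-115349208, both on the minus strand. The Ndufaf7 window lies at chr17:78936885-78937184 on the plus strand.
Cox7a2l: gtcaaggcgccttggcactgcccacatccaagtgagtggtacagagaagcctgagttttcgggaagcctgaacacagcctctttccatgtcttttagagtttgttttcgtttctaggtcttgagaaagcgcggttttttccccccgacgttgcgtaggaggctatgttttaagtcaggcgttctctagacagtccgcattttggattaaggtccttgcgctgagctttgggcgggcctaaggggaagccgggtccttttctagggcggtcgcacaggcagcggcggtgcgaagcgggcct
Ndufb7: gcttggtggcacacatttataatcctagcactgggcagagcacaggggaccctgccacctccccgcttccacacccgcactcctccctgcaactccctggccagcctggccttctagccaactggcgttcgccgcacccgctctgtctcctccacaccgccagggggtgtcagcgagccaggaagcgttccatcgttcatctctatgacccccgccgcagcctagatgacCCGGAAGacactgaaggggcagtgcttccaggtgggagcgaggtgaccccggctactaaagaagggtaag
Ndufs7: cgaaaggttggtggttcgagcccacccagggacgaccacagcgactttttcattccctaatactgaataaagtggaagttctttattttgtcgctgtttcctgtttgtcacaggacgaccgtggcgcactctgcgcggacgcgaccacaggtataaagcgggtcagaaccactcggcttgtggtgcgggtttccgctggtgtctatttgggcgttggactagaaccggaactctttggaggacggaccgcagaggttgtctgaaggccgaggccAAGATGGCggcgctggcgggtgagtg
Uqcr11: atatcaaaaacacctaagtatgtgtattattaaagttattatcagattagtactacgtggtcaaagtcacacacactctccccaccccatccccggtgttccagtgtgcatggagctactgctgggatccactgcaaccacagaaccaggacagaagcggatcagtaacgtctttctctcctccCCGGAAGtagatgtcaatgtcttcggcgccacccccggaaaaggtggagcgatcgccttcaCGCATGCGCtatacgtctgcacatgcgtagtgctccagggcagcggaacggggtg
Cox6a1: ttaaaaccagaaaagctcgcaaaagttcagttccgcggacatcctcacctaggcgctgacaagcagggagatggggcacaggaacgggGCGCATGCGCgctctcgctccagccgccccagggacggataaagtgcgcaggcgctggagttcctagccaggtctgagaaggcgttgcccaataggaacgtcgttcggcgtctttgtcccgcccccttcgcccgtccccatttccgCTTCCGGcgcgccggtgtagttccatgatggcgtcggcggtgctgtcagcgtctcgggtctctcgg
Ndufaf7: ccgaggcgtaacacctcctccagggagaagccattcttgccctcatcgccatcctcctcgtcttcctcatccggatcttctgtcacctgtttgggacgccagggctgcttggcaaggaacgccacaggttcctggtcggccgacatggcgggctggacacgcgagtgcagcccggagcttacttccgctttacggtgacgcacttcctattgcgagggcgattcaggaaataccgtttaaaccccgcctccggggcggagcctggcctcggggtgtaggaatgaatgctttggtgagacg
The Cox7a2l and Ndufaf7 windows, which belong to the members with the lowest and the highest change, held none of the 3 capitalised motifs. Ndufs7 held the YY1 letters just after its start, Ndufb7 held the ETS letters, and Uqcr11 held the NRF1 and the ETS letters. In Cox6a1 the NRF1 letters read on both strands of the same palindrome, and the ETS letters stood on the opposite strand.

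Over the 75 windows, the NRF1 letters were present in 10 (13.3%), against 4.58% of 8121 expressed genes with a window and 1.75% of all 32851 windows of that length. The YY1 letters were likewise in 10 (13.3%), against 5.84% and 2.75%. ETS letters were in 21 (28%), against 22.4% and 8.86%. The PU.1 letters (3 windows, 4%, against 4.03% and 3.2%), CCAAT (32 windows, 42.7%, against 43.9% and 37.4%) and TATAAA (6 windows, 8%, against 7.99% and 13.6%) were near their share of expressed genes. The NRF1 windows belonged to Ndufa8, Ndufa11, Ndufaf4, Ndufaf5, Uqcr11, Uqcrc1, Cox6a1, Atp5k, Atp5g2 and Atp5l. The YY1 windows belonged to 8 genes of complex I (Ndufs7, Ndufs6, Ndufs4, Ndufb8, Ndufc1, Ndufa3, Ndufa9 and Ndufaf8) and to Atp5j2 and Atp5j of complex V. Complex II had ETS letters in 5 of 7 windows and neither the NRF1 nor the YY1 letters. These are matches of letters, described without a test. The members with and without a motif overlapped in their change, and the median log2 change was −0.21 with the NRF1 letters and −0.33 without, −0.39 with and −0.28 without YY1, and −0.28 with and −0.31 without ETS.

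The RNA libraries held 86804487 reads untreated and 111453443 with vitamin C, so counting error was small for most members: the 95% interval of a ratio reached a median of 0.051 to either side on the log2 scale, and 0.51 at most. These intervals are exact binomial (Clopper-Pearson) intervals of the reads, rescaled to RPKM, and cover counting error only. All 9 markers of myeloid progenitors were detected, with a summed level of 6692 RPKM untreated and 3209.7 with vitamin C. Hoxa9, the mouse gene of the factor that immortalized these cells, made up 3062 and 1487 of these sums, so it is not an independent marker here. Kit, Mpo, Prtn3 and Ctsg had ratios of 0.158, 0.164, 0.374 and 0.541. Spi1, Cebpa, Elane and Ptprc differed less, with ratios of 0.789, 0.811, 0.814 and 0.940. The 4 of 5 monocyte and macrophage markers that reached 1 RPKM summed to 216 and 451, and the 5 of 5 mast cell and basophil markers to 2021 and 2708. Erythroid markers (4 of 6) summed to 1307 and 1459. Single genes in these sums differed more widely. Cd68, Cd14, Adgre1 and Csf1r had ratios of 3.31, 2.34, 1.81 and 1.55. Cpa3, Mcpt8 and Hdc had 1.34, 1.27 and 1.29, and Ms4a2 and Cma1 had 4.68 and 40.8. Hbb-bs and Hbb-bt had 1.12 and 1.11, and Hba-a1 and Hba-a2 had 30.4 and 16.1. Cma1, Hba-a1 and Hba-a2 had few reads untreated (28, 8 and 11). None of the 5 B, T and NK cell markers, the 4 fibroblast markers or the 5 muscle and heart markers reached 1 RPKM in either library, and Cd3e, Ncr1, Myh6, Myh7, Tnnt2 and Col1a2 had 0 reads in both. The part of this shift in markers in the results below was not tested. In bulk RNA, fewer cells of a type and less RNA per cell cannot be told apart.

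Most respiratory chain genes stood modestly lower with vitamin C. The members together made up 1.02% of all reads untreated and 0.860% with vitamin C, and their summed level was 8229.9 and 6815 RPKM, a ratio of 0.828. Of the 92 genes, 73 (79.3%) had a log2 change below 0, where 55.2% of all 10436 genes did. The log2 change is that of RPKM + 0.5, vitamin C over untreated. Its median was −0.27 over the members and −0.04 over all genes. The middle 50% of members lay between −0.40 and −0.05, and the extremes were Cox7a2l at −0.72 and Ndufaf7 at 0.78. Counting error alone left the ratio of 67 members below 1, of 9 above 1 and of 16 on either side of 1.

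No member was 2-fold higher or 2-fold lower, where 2.38% of all genes were higher and 1.92% lower by that much. At 1.5-fold, 1 member was higher (Ndufaf7) against 6.21% of all genes, and 4 were lower (Cox7a2l, Cox4i1, Ndufb7 and Ndufs7) against 6.64%. Past 0.32 on the log2 scale, 2 members were higher (Ndufaf7 and Uqcrc2) against 14.8% of all genes, whereas 40 were lower against 18.8%. The members thus differed from the table as a whole by many slightly lower levels rather than by large differences. On the authors' deposited tables of genes higher or lower with vitamin C, which hold 3.93% and 1.72% of the genes at or above 1 RPKM, there was no member. The 77 structural subunits had a median of −0.31 and 65 of them were lower, and the 15 other members had a median of −0.05 and 8 of them were lower.

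**Figure D1:**
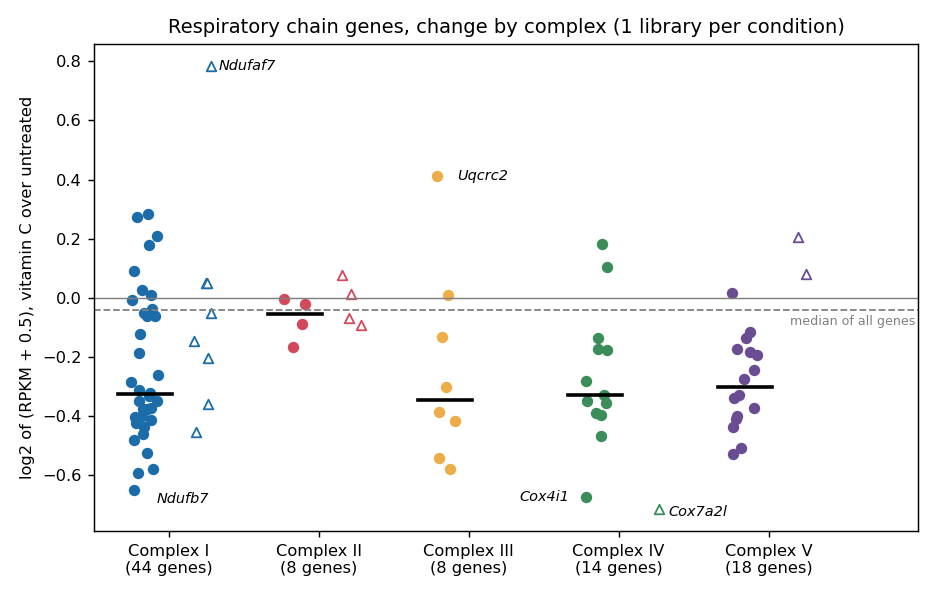
Log2 change of RPKM + 0.5 (vertical axis, vitamin C over untreated) of the 92 genes by complex, with filled circles for structural subunits, open triangles for assembly factors and other members, black bars for the median of the structural subunits and a dashed line for the median of all genes. Complex II lies near the line of all genes at −0.06, while the medians of the structural subunits of complexes I, III, IV and V lie between −0.35 and −0.30.

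By complex, the structural subunits had a median log2 change of −0.33 in complex I (29 of 36 lower), −0.06 in complex II (4 of 4 lower), −0.35 in complex III (6 of 8 lower), −0.33 in complex IV (11 of 13 lower) and −0.30 in complex V (15 of 16 lower). The summed RPKM of all members, vitamin C over untreated, gave ratios of 0.962 for complex II, 0.851 for I, 0.832 for V, 0.818 for III and 0.789 for IV. Complex II thus stood apart from the others in these libraries by how little its genes differed. Of the 73 structural subunits outside complex II, 51 had a lower log2 change than its lowest subunit, 10 lay within its range and 12 above it. With 4 genes and 1 library per condition, this was not tested. By the length implied by reads and RPKM, the complex II members were also longer, with a median of 2.23 kb. The medians were 1.11 kb for complex I, 1.09 kb for III, 0.610 kb for IV and 1.53 kb for V. The part of length in this difference was not tested.

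Complex I is the largest of the enzymes, with a peripheral arm that oxidises NADH and a membrane arm that pumps protons. Its catalytic core has 7 nuclear subunits, which carry the flavin, the iron-sulfur clusters and the ubiquinone site. Their log2 changes ranged from −0.59 to 0.18, with a median of −0.12, and 6 of 7 were lower. Ndufs7, which holds the iron-sulfur cluster next to ubiquinone, stood at 58.3 RPKM untreated and 38.5 with vitamin C, a ratio of 0.661 (counting interval 0.639 to 0.684). Ndufs8, another iron-sulfur subunit, stood at 75.4 and 59.8. These 2 iron-sulfur subunits had the lowest changes of the core. Ndufs3 stood at 17.8 and 16.3 RPKM. Ndufv1, which binds NADH and flavin, stood at 41.6 and 39.8. Ndufs1, the largest core subunit, stood at 35.9 and 34.9. Only Ndufv2 was higher in the core, at 51.5 untreated and 58.3 with vitamin C (0.18).

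The 29 accessory subunits of complex I surround the core and are needed for its assembly and stability. They had a median of −0.35, with 23 lower. Ndufb7, a subunit on the intermembrane side of the membrane arm, had the lowest value in the complex, at 28.4 RPKM untreated and 17.9 with vitamin C, a ratio of 0.630 (0.611 to 0.650). Ndufb11, an X-linked membrane arm subunit, stood at 101.9 and 68.0. Ndufa13, also named GRIM-19, stood at 92.6 and 64.1 (−0.53). Highest in level in the complex were Ndufa1 at 138 and 98.8 RPKM, Ndufa6 at 136 and 103, and Ndufb9 at 128 and 95.7. All 3 were lower with vitamin C by 0.40 to 0.48 on the log2 scale. Ndufs6, Ndufa12, Ndufs4, Ndufb2, Ndufa10, Ndufs5, Ndufa2, Ndufb8, Ndufb5, Ndufc1, Ndufb3, Ndufb4, Ndufa5 and Ndufa3 also lay below, between −0.46 and −0.26.

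Other accessory subunits lay near or above 0. Ndufb6, Ndufa9, Ndufv3, Ndufa7, Ndufa8 and Ndufab1, the mitochondrial acyl carrier protein, lay between −0.06 and 0.09. The highest accessory subunits were Ndufc2 at 94.1 RPKM untreated and 115 with vitamin C (ratio 1.22, 1.18 to 1.26), Ndufa11 at 15.9 and 19.4, and Ndufb10 at 66.6 and 77.1. Ndufc2 and Ndufc1, both of the membrane arm, thus had opposite directions, with Ndufc1 at 20.8 and 16.2 RPKM.

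The 8 assembly factors of complex I, which help to build it but are absent from the finished enzyme, had a median of −0.10. Ndufaf7, a methyltransferase of the mitochondrial matrix, was the member with the highest change of all. It stood at 10.0 RPKM untreated and 17.7 with vitamin C, a ratio of 1.76 (1.66 to 1.86). Ndufaf8 stood at 19.4 and 14.02, and Ndufaf2, which binds a late assembly intermediate, at 18.9 and 14.6. Ndufaf6, Ndufaf4, Ndufaf1, Ndufaf3 and Ndufaf5 lay between −0.20 and 0.05.

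Complex II oxidises succinate to fumarate, and all its 4 subunits were within 0.17 of 0 on the log2 scale. Sdha, the flavoprotein that holds the succinate site, stood at 98.5 RPKM untreated and 92.5 with vitamin C, a ratio of 0.939 (0.925 to 0.955). Sdhb, the iron-sulfur subunit, stood at 45.9 and 40.8, a ratio of 0.889 (0.861 to 0.917). For the membrane anchors the interval included 1. Sdhc stood at 42.9 and 42.2, a ratio of 0.985 (0.959 to 1.01), and Sdhd at 134 and 133, a ratio of 0.996 (0.973 to 1.02). Its assembly factors, of which Sdhaf2 attaches flavin to Sdha and Sdhaf1 helps to insert iron-sulfur clusters into Sdhb, lay between −0.09 and 0.08. Sdhaf3, at 1.76 RPKM untreated and 1.88 with vitamin C, was among the members just above the threshold of 1 RPKM.

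Complex III carries out the ubiquinol cycle, and 6 of its 8 genes were lower. Uqcr11, a small supernumerary subunit, stood at 119 RPKM untreated and 79.4 with vitamin C, a ratio of 0.668 (0.642 to 0.695). Uqcrh, the hinge protein next to cytochrome c1, stood at 139.6 and 95.7. Uqcrfs1, the Rieske iron-sulfur protein that takes the electron from ubiquinol, stood at 107 and 80.1. The small subunit Uqcr10 stood at 153 and 117, and Uqcrq at 62.1 and 56.5. The core proteins had opposite directions. Uqcrc1, the highest in level, stood at 269 RPKM untreated and 218 with vitamin C, a ratio of 0.810 (0.798 to 0.823). Its partner Uqcrc2 stood at 78.5 and 105, a ratio of 1.33 (1.31 to 1.36), the highest ratio among the structural members. Uqcrb, which lies near the ubiquinone pocket, stood at 45.0 and 45.3. Of the partners outside the symbol rule, cytochrome c1 (Cyc1) stood at 152 and 139.9 RPKM, and cytochrome c (Cycs) at 16.1 and 18.3.

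Complex IV held the member with the highest level, Cox8a, and the pair with the lowest changes. Cox7a2l, which joins complexes III and IV in supercomplexes, stood at 267 RPKM untreated and 162 with vitamin C, a ratio of 0.608 (0.596 to 0.620). Cox4i1, the ubiquitous form of the subunit at which ATP slows the enzyme, stood at 273 and 171, a ratio of 0.625 (0.615 to 0.636). Its paralog Cox4i2, known as the form favoured in hypoxia and in lung, was near the threshold at 1.54 and 1.05 RPKM, from 88 and 77 reads, and its interval was wide (0.682, 0.496 to 0.937). Cox6b1, on the intermembrane side, stood at 328 and 237, a ratio of 0.723. Ndufa4, named for complex I but a subunit of complex IV, stood at 411 and 321, and its hypoxia-linked paralog Ndufa4l2 had 0 and 2 reads. Highest of all 92 members was Cox8a, at 427 RPKM untreated and 378 with vitamin C (−0.18).

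**Figure D2:**
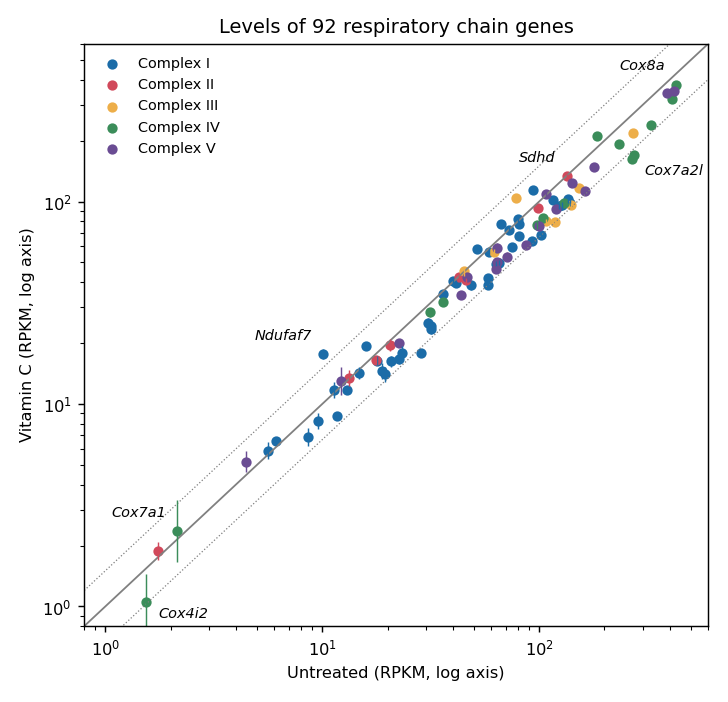
Level of the 92 genes in RPKM, untreated (horizontal, log axis) against vitamin C (vertical, log axis), coloured by complex, with the solid line for equal levels, dotted lines for 1.5-fold differences and bars for the 95% counting interval. Members span from 1.54 to 427 RPKM untreated, and the bars are widest for Cox4i2 and Cox7a1.

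In Cox6a, Cox7a and Cox8, a form found in most tissues and a heart and muscle form are encoded by separate genes, and the libraries held chiefly the former. Cox6a1 stood at 233 RPKM untreated and 192 with vitamin C, where Cox6a2 stood below the threshold at 0.593 and 0.928 (28 and 57 reads). Cox7a2 stood at 129.7 and 98.8, where Cox7a1, the muscle form, stood at 2.15 and 2.35 from 57 and 80 reads, a ratio of 1.09 (0.769 to 1.56). Cox8b and Cox8c, like Cox7b2, had 0 reads in both libraries, and Cox6b2, a testis form, had 1 read untreated and 0 with vitamin C. Cox5b stood at 97.7 and 76.6 RPKM and Cox7b at 104 and 82.6. Cox6c and Cox7c were closer to equal, at −0.17 and −0.14 on the log2 scale. The single subunit higher beyond counting error was Cox5a, which like Cox5b lies on the matrix side of the enzyme, at 185 RPKM untreated and 210.2 with vitamin C (ratio 1.13).

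Complex V consists of the catalytic F1 head, a rotating c ring, a peripheral stalk that holds the head still, and small membrane subunits. All 5 F1 genes were lower, with a median of −0.24. Atp5a1 (alpha) stood at 417 RPKM untreated and 352 with vitamin C, a ratio of 0.844 (0.837 to 0.851), and Atp5b (beta), which holds the catalytic sites, at 388 and 343. The subunits of the central stalk differed from each other. Atp5d (delta) stood at 163 and 113, a ratio of 0.692, Atp5e (epsilon) at 63.3 and 46.6, and Atp5c1 (gamma), the rotor shaft, at 142 and 124.

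The 4 genes of the peripheral stalk were all lower, with a median of −0.33: Atp5h stood at 87.2 RPKM untreated and 61.2 with vitamin C, Atp5o, the oligomycin sensitivity protein, at 63.9 and 50.4 (−0.34), Atp5j at 43.7 and 34.6, and Atp5f1 at 46.4 and 42.2. The membrane subunits Atp5k (71.0 and 53.3), Atp5j2 (100.0 and 75.8), Atp5mpl (119 and 91.8) and Atp5l (64.2 and 59.3) had a median of −0.39. Atp5l shares sequence with Atp5l-ps1, which stood at 12.2 and 12.9 RPKM from 277 and 375 reads, so reads of this pair may be divided between them. The genes Atp5g1, Atp5g2 and Atp5g3 encode the identical c subunit with different targeting sequences. Atp5g2 stood at 179 and 148 RPKM (−0.28), Atp5g1 at 22.7 and 19.9 (−0.18), and Atp5g3 at 108 and 109, a ratio of 1.01 (0.992 to 1.03). Atp5s, the coupling factor, stood at 4.44 and 5.19. Levels between genes rest on the gene length the authors used, which the columns used here do not give, and the length implied by reads and RPKM differed from 0.369 kb for Atp5g2 to 4.11 kb for Atp5g1.

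The members were short by the length implied by reads and RPKM. This is not the span on the chromosome: Ndufs4 had an implied 1.28 kb but lies at chr13:114287795-114388094. The implied length had a median of 1.09 kb over the members and 3.01 kb over all genes, and 48 members were among the genes of up to 1.13 kb. These 48 had a median of −0.33, where the 996 other genes of that length had −0.09 and 59.2% of them were lower. The 22 members from 1.13 to 1.88 kb had a median of −0.19 and the other genes −0.02. The 12 members of the next class, from 1.88 to 3.01 kb, had −0.13 against −0.02, and those of 3.01 to 4.6 kb had −0.14 against −0.03. The 2 longest members, with opposite directions (Ndufb2 at −0.40 and Ndufab1 at 0.09), had a median of −0.16 against −0.07. In every one of these length classes the median of the members was thus below that of the other genes. Among the other genes, the shortest and the longest class both stood slightly lower with vitamin C, at −0.09 and −0.07, with 59.2% and 59% of genes lower.

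By level, the direction was different in the members and in the rest of the table. The 31 members at or above 100 RPKM had a median of −0.37, and the 744 other genes of that level 0.03. The 21 members from 50 to 100 RPKM had −0.33 against 0.01, the 20 from 20 to 50 RPKM −0.18 against −0.02, the 17 from 5 to 20 RPKM −0.05 against −0.05, and the 3 from 1 to 5 RPKM 0.08 against −0.10. The more abundant members thus stood lower while abundant genes outside the chain did not. Level and kind of member went together. The 15 other members, mostly assembly factors, had a median of 13.0 RPKM untreated and a median log2 change of −0.05. For the 77 structural subunits these were 72.8 RPKM and −0.31. The part of kind in the trend with level was not tested. Among genes both short and at or above 50 RPKM, the 32 members had a median of −0.37, with 28 lower, and the 317 others −0.09, with 187 (59%) lower. Over the 92 members, the log2 change had a Pearson r of −0.36 and a Spearman rho of −0.36 with log untreated RPKM, a value that enters both quantities, and of 0.19 and 0.21 with the implied length. These describe genes from the same pair of libraries, which are not independent. Promoter GC content, with a median of 58.7% in 75 members and 60.7% in all genes, gave 0.085 and 0.058.

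**Figure D3:**
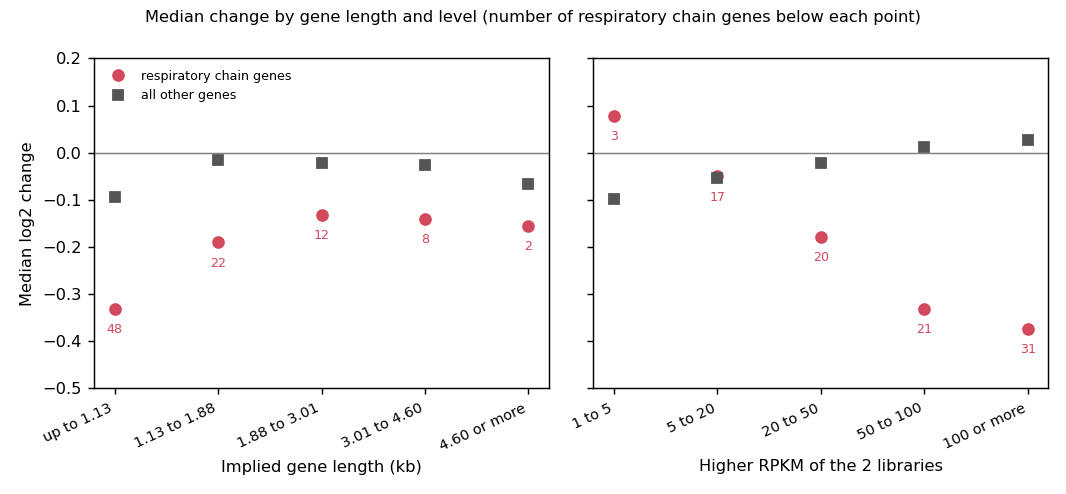
Median log2 change (vertical) of the respiratory chain genes (red circles, their number below) and of all other genes (grey squares) by implied gene length in kb (left) and by the higher RPKM of the libraries (right). At 100 RPKM or more the members lie at −0.37 and the other genes at 0.03, whereas from 5 to 20 RPKM both lie at −0.05. The members from 5 to 20 RPKM include the 8 assembly factors of complex I.

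Chromatin at the start sites is a readout apart from the RNA. Peaks listed by the authors within 1 kb of the start were counted for the 75 members with a RefSeq start and for the 8121 expressed genes. H3K4me3, a mark of active promoters, was listed at 75 of 75 members in both conditions, against 96.4% of all genes untreated and 96.4% with vitamin C. H3K27ac, the acetyl mark of active regulatory elements, was listed at 73 members untreated, against 91.5% of genes, and at 75 with vitamin C, against 90.8%. Ndufa1 and Cox7a1 had an H3K27ac peak with vitamin C only. The widest H3K4me3 peak at a member's start had a median of 2345 bp untreated and 2195 bp with vitamin C, near that of all genes (2291 and 2290.0 bp). H3K27ac peaks were narrower at members (1207 and 1257 bp) than at all genes (1490.0 and 1537 bp).

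H3K4me1, which flanks active promoters and marks enhancers, was listed within 1 kb at 50 members untreated (66.7%), against 57.8% of genes, and at 42 with vitamin C (56%), against 47.1%. Of the 75 starts, 26 had it in both, 24 untreated only, 16 with vitamin C only and 9 in neither. The lower count with vitamin C was seen in members and in all genes alike. The larger share at members depended on the window: within 200 bp, H3K4me1 was at 20% of members and 24.5% of genes untreated, and at 14.7% and 14.8% with vitamin C. Sdha, Sdhb and Cox7a2l were among the starts with an H3K4me1 peak untreated only, and Ndufc2, Sdhaf3 and Atp5g2 among those with one with vitamin C only.

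PU.1 and Runx1 are transcription factors of the myeloid lineage, encoded by Spi1 and Runx1. PU.1 peaks were listed at 23 member starts untreated (30.7%), against 43.9% of all genes, and at 9 with vitamin C (12%), against 20.0%. All 9 were also listed untreated. Runx1 peaks were listed at 12 member starts untreated (16%), against 27.6%, and at 33 with vitamin C (44%), against 47.8%. Of these, 11 were in both lists, 22 in the vitamin C list only, and Ndufa13 in the untreated list only. The opposite directions of the factors at members were also those of the table as a whole and of the list lengths: 61611 PU.1 peaks untreated and 23522 with vitamin C, and 3908 and 6250.0 Runx1 peaks. PU.1 in both conditions and Runx1 untreated were listed at a smaller share of members than of genes in general. With vitamin C, the Runx1 share of members (44%) was near that of all genes (47.8%).

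**Figure D4:**
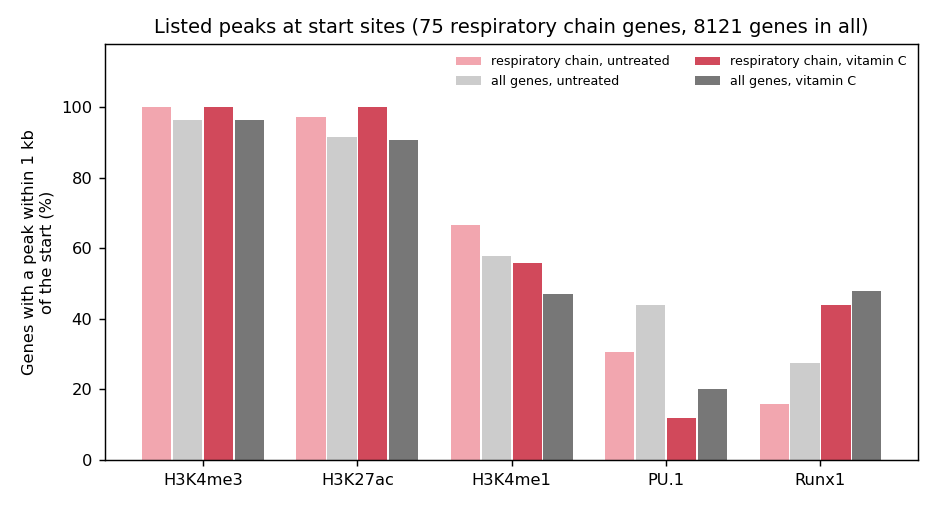
Share of start sites (vertical, percent) with a listed peak within 1 kb, for 75 respiratory chain genes (red) and 8121 genes (grey), untreated (light) and with vitamin C (dark). PU.1 is at 30.7% and 12% of the members, against 43.9% and 20.0% of all genes, and Runx1 at 16% and 44%, against 27.6% and 47.8%.

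At the 2 members with the extreme changes, both factors were listed, but not at these members only. Both were also listed at members with small changes, such as Sdhb (−0.17), Sdhaf4 (0.01) and Cox7c (−0.14). Ndufb7 and Ndufs7, the lowest after Cox7a2l among members with a RefSeq start, had neither. The share of all genes with both factors is not given here. Within 1 kb of the start of Cox7a2l, PU.1 peaks were listed at chr17:83513687-83513962 and chr17:83514875-83515198 untreated, with the authors' scores of 8.38 and 15.1, and at chr17:83514904-83515086 with vitamin C, with a score of 3.12. A Runx1 peak at chr17:83514557-83514769 was listed with vitamin C only, with a score of 7.21. At Ndufaf7, a PU.1 peak with a score of 116 untreated and 83.2 with vitamin C was centred over 1 kb from the start, and smaller ones near the start had scores of 4.97 and 5.16. Its Runx1 peak had a score of 4.30 untreated and 29.8 with vitamin C and was centred at most 13 bp from the start. The unit of these scores was not stated, and they rank peaks within their own list only. Another protein-coding gene lay at least in part within 1 kb of the start for 28 of the 75 members. A peak or region there cannot be assigned to the member alone. For Ndufaf7 this is Cebpz.

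DNA methylation regions were few at the members. Regions listed as WGBS iMRs lay within 1 kb of 2 starts, against 3.18% of genes: Ndufa8 at chr2:36049784-36049798 and Ndufb11 at chrX:20617752-20618259. WGBS deMRs were at 0 members, against 2.89% of genes. MeDIP deMRs were at 1 member, Ndufa13 at chr8:69902001-69903000, against 0.813%, and MeDIP iMRs at 0, against 0.271%. hMeDIP iHRs were at 2 members, against 1.93%, namely Ndufa13 at chr8:69902251-69903000 and Ndufaf7 at chr17:78937001-78937500. The iMRs named for the mutant in MeDIP, a list attached to the untreated cells with wild-type IDH1, were at 0, against 1.66%. Counts this small do not set the members apart from the table. Ndufa13 was thus the only member with both a MeDIP and an hMeDIP region at its start, and Tssk6 lies at least in part within 1 kb of that start. The meaning and the thresholds of these lists were not stated.

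Genes that work with the chain were taken from other lists. Of 35 assembly factors outside the symbol rule, 33 reached 1 RPKM, with a median log2 change of −0.12 and 26 lower. None was past 2-fold. Coa5, a factor for complex IV, stood at 37.4 RPKM untreated and 55.2 with vitamin C, Cox14, which couples synthesis of COX1 to assembly, at 63.9 and 46.3, Coa7 at 4.25 and 2.87, and Tmem126b, a complex I factor, at 3.93 and 2.75. Usmg5, a further ATP synthase subunit, stood at 88.5 and 74.7. Regulators of mitochondrial genes (14 of 15 measured, 11 lower) had a median of −0.17. Ppargc1b, a coactivator of mitochondrial genes, stood at 6.30 and 3.58 RPKM, Polg, the mitochondrial DNA polymerase, at 17.9 and 12.3, Twnk, its helicase, at 17.3 and 12.7, and Tfb1m, which methylates mitochondrial ribosomal RNA, at 10.3 and 16.3. Of the factors whose letters were searched, Nrf1 stood at 6.74 and 6.23, Yy1 at 67.5 and 67.4, and Gabpa at 14.4 and 15.3. Spi1, which encodes PU.1, stood at 105 and 83.0, a ratio of 0.789 (0.774 to 0.804).

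Coenzyme Q synthesis (13 genes, 9 lower) had a median of −0.10, with Coq8a at 4.02 RPKM untreated and 2.19 with vitamin C, Coq9 at 27.7 and 18.2, Coq6 at 8.40 and 7.08, and Coq10b, which binds coenzyme Q, at 5.15 and 8.96. Mitochondrial outer membrane, import and chaperone genes (15, of which 13 lower) had a median of −0.12, with the import motor gene Timm44 at 29.3 and 21.98, the prohibitin Phb at 35.6 and 27.8, the chaperonin gene Hspe1 at 69.8 and 54.6, and Timm23, the import channel, at 16.3 and 13.5. The tricarboxylic acid cycle genes without the Sdh genes (13, of which 7 lower) had a median of −0.0046. Its extremes were Fh1 (fumarase) at 41.7 and 34.2 RPKM, Idh3g at 93.5 and 77.9, Sucla2 at 15.2 and 18.1, and Ogdh at 63.9 and 74.5. Complex II thus lay near the other enzymes of that cycle, and the remaining complexes lay lower. None of these lists had a member past 2-fold.

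Glycolysis and hypoxia-linked mitochondrial genes lay on the other side of 0. Glycolytic genes (16, of which 3 lower) had a median of 0.49, with 3 genes 2-fold or more higher and 1 lower. Slc2a1, a glucose transporter, stood at 37.6 RPKM untreated and 89.9 with vitamin C, Aldoa at 529 and 1192, Gapdh at 212 and 440.5, and Aldoc, a paralog of Aldoa, at 3.21 and 1.09. Of the 8 hypoxia-linked genes, 7 were higher, with a median of 0.44. Bnip3, a receptor for removal of mitochondria, stood at 15.8 and 107, the 1 gene of its list past 2-fold, its paralog Bnip3l at 22.1 and 35.5, Higd1a, a small protein of the inner membrane, at 13.3 and 19.4, and the protease Lonp1 at 81.1 and 113. These lists and the respiratory chain were measured in the same pair of libraries, and a link between their directions was not tested.

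**Figure D5:**
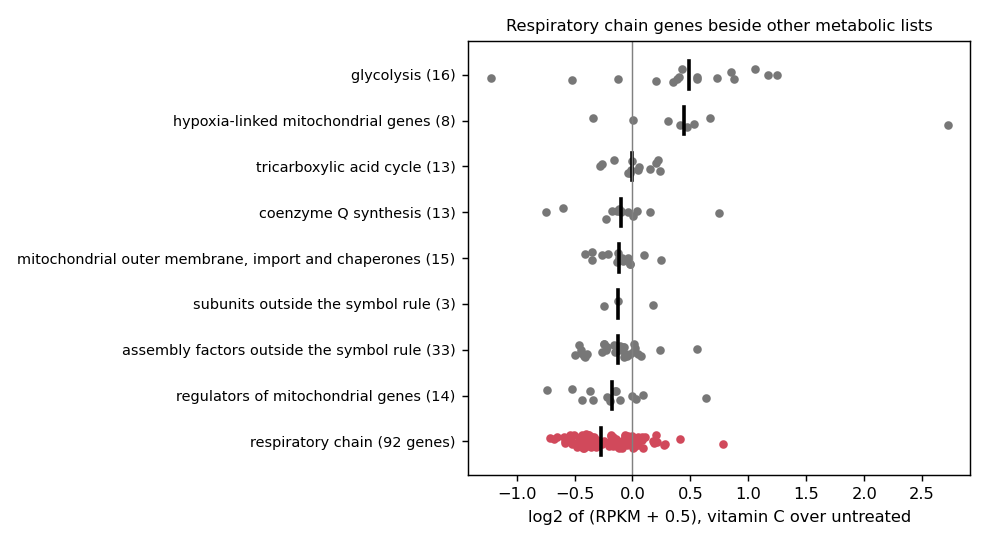
Log2 change of RPKM + 0.5 (horizontal, vitamin C over untreated) of every measured gene of each list, with the number of genes in brackets, the respiratory chain in red and a black bar for each median. The respiratory chain median is −0.27, and glycolysis and the hypoxia-linked genes are at 0.49 and 0.44.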

How the data were processed

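Per the labels, polyA RNA was made into strand-specific libraries, 1 untreated and 1 with vitamin C, and the other assays had 1 library per group. The submitters' processing notes name SAMtools 0.1.2 and 0.1.16, Picard and MACS2 for these RNA samples and the build mm10. Which aligner and annotation were used, and whether counting used strand, is not given in the sources used here. Per gene, the authors deposited a whole-number read count and an RPKM value under an Ensembl identifier. Further unnamed columns of type other were deposited and not used. Histone peaks carry a p-value or q-value deposited without saying which. PU.1 and Runx1 peaks carry a score deposited without a definition, and methylation regions carry positions only. All lists were attached to single samples.

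Members, complexes and gene lists were chosen with earlier results of these data known, and the split into roles was drawn up after the values were seen. Each log2 change compares vitamin C with untreated after adding a pseudocount of 0.5 to the RPKM, for genes of 1 RPKM or more. Intervals are 95% Clopper-Pearson. Implied length is the read count divided by RPKM and by the library total. Genes were matched to symbols for 21611 of 22371 identifiers, and to RefSeq starts for 75 of the 92 members. Of the listed genes, mitochondrial DNA genes and Ndufb1 were not analysed here, and the values of some single genes are not reported here. Named were, per complex, the 3 highest, 3 lowest and 3 most abundant members, complex II, paralog sets, members past 1.5-fold, and up to 4 genes per other list with the largest change. Other members, the regulators Nrf1, Yy1 and Gabpa, and start-site examples were named after their values were seen. Python 3.11.15, pandas 2.3.3, numpy 2.4.6, scipy 1.17.1 and matplotlib 3.10.9 were used. The log2 change and the counting interval were tested on simulated reads that varied by counting error only. Alternatives were pseudocounts of 0.1 and 1, a filter of 5 RPKM or none, centring on all genes, reads scaled by library total, structural subunits only, other folds, windows of 200 bp and 2 kb, and the stronger 50% of each peak list.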

Additional observations from a re-analysis of the deposited data

How the results depend on the processing

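No paired analysis was possible because each condition had 1 library, and for the same reason no library could be left out and no test was made. The median log2 change of the members stayed between −0.31 and −0.23 under the filters, pseudocounts, scalings and the restriction to structural subunits. No alternative turned the direction of a complex median. Centring on the median of all genes, which shifts every value by 0.04, gave, over all members of a complex, −0.30 for complex III, −0.30 for complex IV, −0.22 for complex V and −0.0019 for complex II, against −0.35, −0.34, −0.26 and −0.05. It left 69 of 92 members below 0 in place of 73, as Ndufs1, Ndufv3, Sdhc and Sdhd moved to the other side. Without the RPKM filter complex IV was at −0.28, since the unexpressed paralogs enter. The 0 members past 2-fold became 1 higher and 4 lower at 1.5-fold, and 2 higher and 40 lower past 0.32 on the log2 scale. Within 200 bp of the start, H3K4me1 was listed at 15 members untreated and 11 with vitamin C in place of 50 and 42, which turns the comparison with all genes (20% against 24.5% untreated, 14.7% against 14.8% with vitamin C), WGBS iMRs at 1 in place of 2, and hMeDIP iHRs at 1 in place of 2. Within 2 kb, MeDIP deMRs were at 2 members in place of 1. The stronger 50% of each list, which has fewer peaks by construction, gave H3K4me1 at 28 and 15 members (37.3% against 29.5% of genes, and 20% against 23%, which turns the comparison with vitamin C), PU.1 at 13 and 5 (17.3% against 23.6%, and 6.67% against 11.4%), and Runx1 at 3 and 16 (4% against 16.3%, and 21.3% against 28.1%). Depth limits only Cox4i2, Cox7a1, Cox6a2 and the other genes with few reads. The spread between cultures is unknown.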

Other observations

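Other families of housekeeping complexes, chosen after the values of the respiratory chain were seen, served as a further description of the libraries. The Snrp genes of splicing particles (11 genes, 9 lower) had a median log2 change of −0.23, close to the −0.27 of the respiratory chain. The genes with Timm symbols (15 genes, 10 lower), which include import genes of the inner membrane, had −0.25. That set also holds Timmdc1, a complex I assembly factor at −0.25, which is also among the assembly factors outside the symbol rule. The Eif3 translation initiation genes (14, of which 11 lower) had −0.17 and the Polr2 genes of RNA polymerase II (13, of which 8 lower) −0.14. All 7 chaperonin genes of the Cct family were lower, with a median of −0.11. Medians below 0 were thus also present in these other families of the same libraries.

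Other complexes lay nearer 0 or above it. The proteasome core genes Psma and Psmb (17, of which 11 lower) had a median of −0.07, the Lsm genes (13, of which 7 lower) −0.06, and the proteasome cap genes Psmc and Psmd (21, of which 8 lower) 0.05. The V-ATPase genes Atp6v, which acidify lysosomes and vesicles and are a distant relative of complex V, were mostly higher (12 of 15), with a median of 0.23, against −0.26 for the ATP synthase. No gene of these 9 families was past 2-fold.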
